A study of Mus musculus with 11 samples.

Results

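The histone lysine demethylases examined here were 10 autosomal genes, Kdm1a, Kdm2a, Kdm3a, Kdm3b, Kdm4a, Kdm4b, Kdm4c, Kdm5a, Kdm5b and Kdm7a, taken by symbol from the 39017 genes of the deposited count table. All 10 were present and all 10 passed the filter on low counts. They were compared between spinal cord microglia with and without a conditional deletion of Kdm6a, the X-linked gene for a demethylase of lysine 27 of histone H3. The question was whether RNA of other demethylases differed where Kdm6a was deleted. The deleted group (cKO, 5 samples) carried Tmem119-Cre/ERT2, the RiboTag allele and the Kdm6a deletion. The wild-type group (WT, 6 samples) carried the same Cre and RiboTag, without the deletion. All mice were healthy female C57BL/6. Their ages and the tamoxifen schedule are not given in the labels. RiboTag is a Cre-dependent epitope tag on a ribosomal protein, so the libraries hold RNA that came down with tagged ribosomes, and Tmem119, which drives the Cre, is a gene of microglia. The labels do not state that samples came from separate animals, so p-values reflect the spread between samples, which may be technical.

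Histone lysine demethylases remove methyl groups from histone tails and fall into a pair of enzyme classes. KDM1A, also called LSD1, uses flavin as cofactor, whereas the Jumonji enzymes, which are the other members and KDM6A itself, use iron, oxygen and 2-oxoglutarate. Each family has preferred sites: KDM1 and KDM5 act on lysine 4 of histone H3 (H3K4), KDM2 on H3K36, KDM3 on H3K9, KDM4 on H3K9 and H3K36, and KDM7A on H3K9 and H3K27. KDM7A is therefore the member whose substrates include the residue that KDM6A acts on.

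The libraries held 28620584 to 40943004 counts. Where 5 cKO values or 6 WT values are listed, they stand in the order cKO2, cKO4, cKO5, cKO6, cKO7 and, among the wild types, WT8, WT9, WT13, WT15, WT16, WT17. The 5 microglia markers checked were Tmem119, P2ry12, Csf1r, Cx3cr1 and Sall1. In the deleted group they summed to between 19450 and 21970 CPM (counts per 1000000 of library size, after TMM scaling). In WT they summed to 14400 to 19030 CPM, so the groups did not overlap in this sum. All 5 had a positive log2 fold change of cKO over WT. By the edgeR test and threshold given below, 4 of the 5 were called higher, where 1.86% of all genes were. Cx3cr1 was not called (0.19, edgeR adjusted p = 0.242). Taken singly, Cx3cr1 and P2ry12 overlapped between the groups, while Tmem119, Csf1r and Sall1 did not. The 6 neuronal markers summed to 944.0 to 1152 CPM in cKO and to 991.4 to 2518 CPM in WT, with WT13, WT16 and WT17 highest at 2094, 1683 and 2518 CPM. The neurofilament genes Nefh, Nefm and Nefl were the largest of the 6, with WT means of 659.5, 388.7 and 372.4 CPM. Of the 6 log2 fold changes 5 were negative, and that of Snap25 was 0.02 (edgeR adjusted p = 0.955). The 5 oligodendrocyte markers summed to 4315 to 4975 CPM in cKO and to 4225 to 5518 CPM in WT, and the 5 astrocyte markers to 1100 to 1287 CPM and 1070 to 1531 CPM in the same groups. The 4 endothelial and mural markers summed to 49.2 to 61.7 CPM in cKO and 51.4 to 180 CPM in WT. The 4 markers of border macrophages and monocytes summed to at most 0.910 CPM in cKO and 2.79 CPM in WT, with Lyve1 at 0 in all 11 libraries. RNA of other spinal cord cells was thus present beside microglial RNA, and none of the demethylases is restricted to microglia, so their counts are those of the whole pulldown. In such bulk samples fewer cells of a type and less RNA per cell cannot be told apart.

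Kdm6a (ENSMUSG00000037369, mm10 chromosome X, 18162575 to 18279936) had 6.39, 7.31, 7.73, 6.29 and 3.80 CPM in the cKO libraries, while WT had 7.24 CPM in its lowest library, a median of 10.2 and 12.03 CPM in its highest. The groups overlapped, through cKO4 and cKO5 on the one side and WT13 and WT15 on the other. The log2 fold change was -0.61 (SE 0.25), which did not pass the threshold of 0.05 on the adjusted p (edgeR quasi-likelihood test with Benjamini-Hochberg adjustment over all 16025 genes tested, adjusted p = 0.193). The exons removed are not given, and exons outside them still count.

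None of the 10 demethylase genes passed the threshold in either direction. In the same test 4.29% of all genes passed, 1.86% higher and 2.43% lower in cKO. At an unadjusted p under 0.05 there were 2 of the 10, Kdm4a and Kdm1a, where 18.3% of all genes reached that level. DESeq2, which called 7.25% of all genes, called 1 of the 10, Kdm4a, and gave no adjusted p for Kdm5a. The limma-voom fit, which called 3.29% of all genes, called 0. The median log2 fold change of the 10 was 0.0045, with 5 genes positive and 5 negative, and over all genes tested the median was -0.013. With libraries scaled by their totals alone, that median over all genes moved to -0.098, and 203 genes were called higher and 601 lower, in place of 298 and 389. Under that scaling Kdm1a was the single member with a positive value, since Kdm2a, Kdm3a, Kdm4b and Kdm5b, which were all close to 0, turned negative. Kdm4a was the single member for which every cKO library lay below every WT library. Over all genes tested the groups did not overlap in 4.16%, with cKO below in 1.99%.

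**Figure D1:**
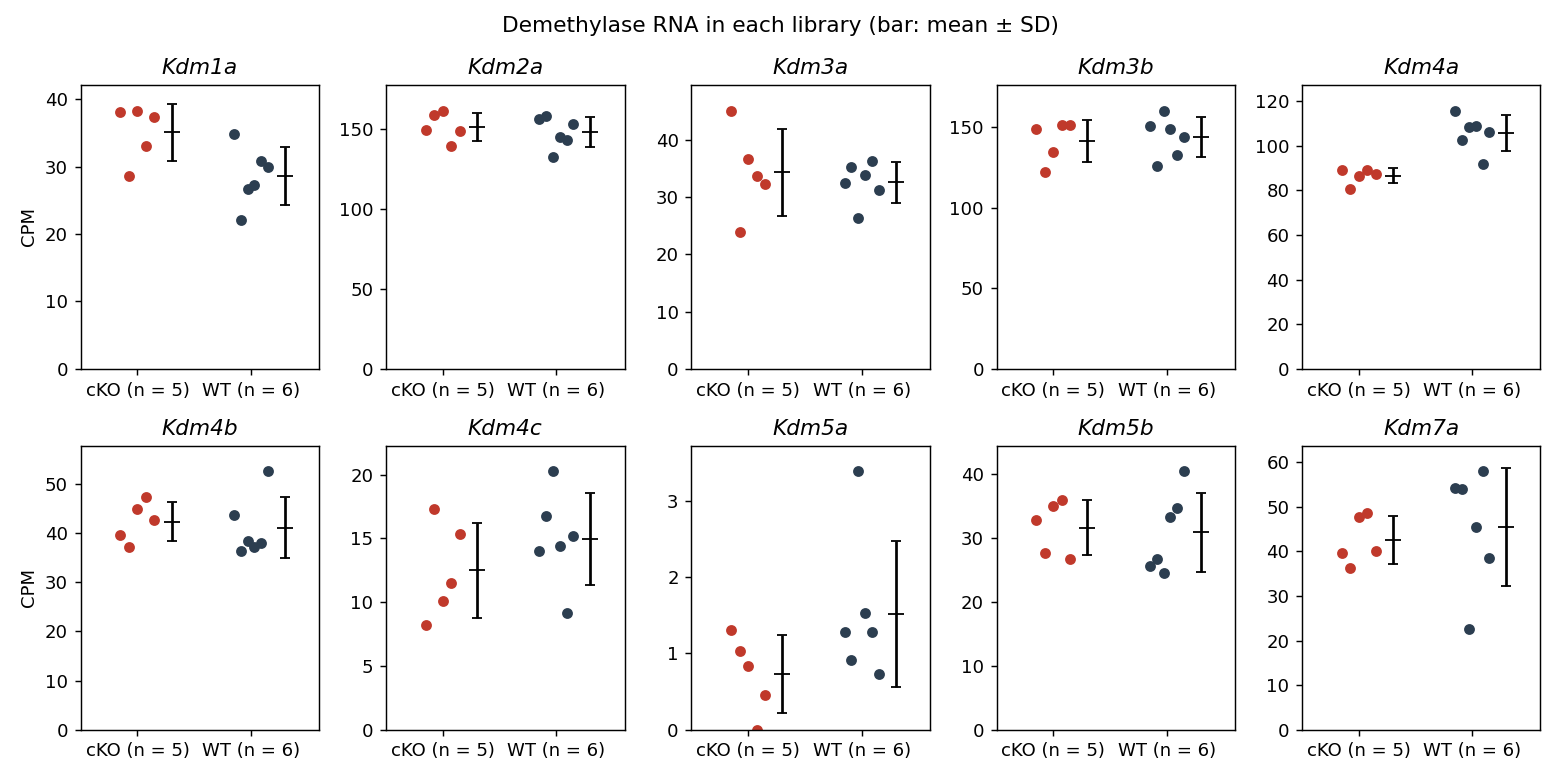
CPM of the 10 demethylase genes in each library (one point per library; cKO in red on the left, n = 5; WT in dark blue on the right, n = 6; bars give mean ± SD; each vertical axis starts at 0). For Kdm4a the cKO libraries lie between 80.7 and 89.2 CPM, below all WT libraries, whereas the groups overlap for the other 9 genes.

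Per kilobase of merged exons, Kdm4a was the highest member, but by CPM alone it was not. Mean CPM was 151.2 in cKO and 147.9 in WT for Kdm2a, 141.4 and 143.6 for Kdm3b, and 86.5 and 105.5 for Kdm4a. Merged exons join those of all annotated transcripts, and which transcripts were present was not tested, so the order below holds for this length only. Levels in CPM per kilobase of merged exons averaged 15 ± 0.601 in cKO and 18.2 ± 1.39 in WT for Kdm4a (SD, n = 5 and n = 6). Next came Kdm2a, a demethylase of H3K36 that binds unmethylated CpG-rich promoters, at 10.5 ± 0.613 in cKO and 10.2 ± 0.664 in WT on the same scale, and Kdm3b at 10.0 ± 0.926 and 10.2 ± 0.893 in these groups. Over the 11 libraries Kdm4a was never below 14.0 and did not overlap with Kdm2a, which ran from 9.17 to 11.2. Kdm2a, Kdm3b (8.64 to 11.4) and Kdm4b (7.42 to 10.7) overlapped, and so were not separated by their spread. Kdm1a ran from 4.25 to 7.39 and did not overlap with Kdm4b above it, but did with Kdm7a (2.25 to 5.76) and Kdm3a (2.91 to 5.47) below it. Kdm4c (1.41 to 3.48) and Kdm5b (1.48 to 2.44) overlapped with each other, and Kdm5b lay above Kdm6a (0.453 to 1.44) in these libraries. Kdm5a was lowest, at 0 to 0.239, but whether its reads were lost in the authors' counting cannot be told.

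**Figure D2:**
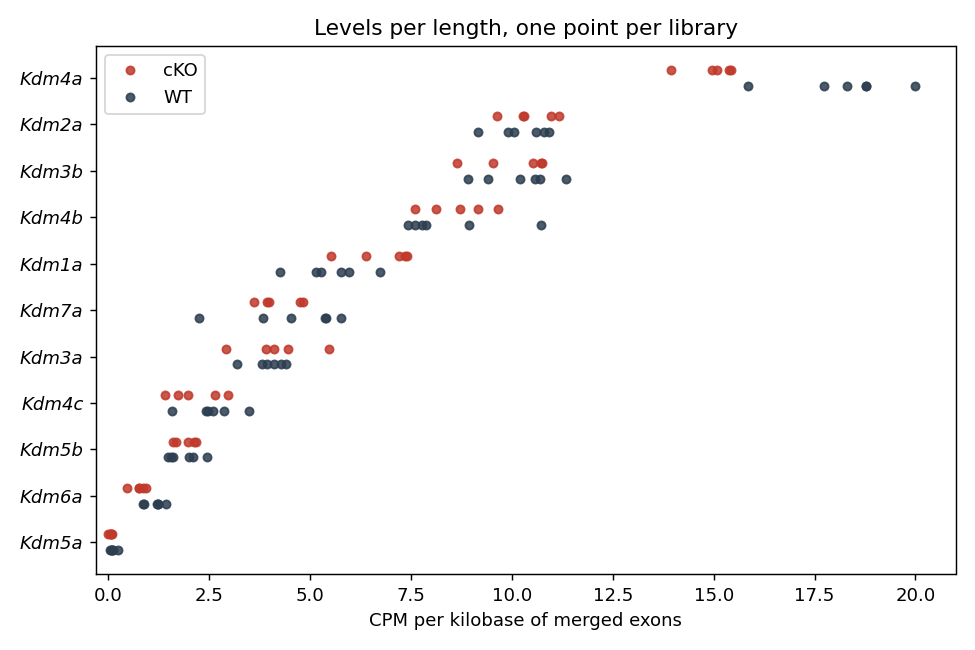
Level of each demethylase gene, and of Kdm6a, in CPM per kilobase of merged exons (horizontal axis, linear, from 0), one point per library with cKO in red above WT in dark blue in each row; genes are ordered by their mean over the 11 libraries. Kdm4a is highest, at 14.0 or above in every library, and Kdm5a lowest, at 0 to 0.239.

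The KDM4 enzymes remove methyl groups from trimethylated H3K9 and H3K36. Kdm4a (ENSMUSG00000033326, mm10 chromosome 4, 118136957 to 118180043, minus strand) had 89.0, 80.7, 86.5, 89.2 and 87.3 CPM in the cKO libraries, against 116, 103, 108.5, 109, 91.6 and 106 CPM in the WT libraries. All cKO libraries were below all WT libraries, and the narrowest gap was between cKO6 and WT16. The means were 86.5 ± 3.48 CPM in cKO (SD, n = 5) and 105.5 ± 8.03 CPM in WT (SD, n = 6). On the log2 scale cKO over WT was -0.29 (SE 0.087, 95% interval -0.47 to -0.11), or -18.0% with an interval of -27.6 to -7.07%, and the edgeR quasi-likelihood test gave an adjusted p of 0.0643. Over 20 alternative settings the log2 fold change stayed between -0.37 and -0.26 and the adjusted p ran from 0.00708 to 0.155. It passed in 4 of them: with library totals for scaling (adjusted p = 0.00708), with DESeq2 (0.0158), without WT13, WT16 and WT17 (0.0349) and without WT16 (0.0476). With a covariate for markers of neurons, astrocytes and oligodendrocytes the log2 fold change was -0.31 (edgeR adjusted p = 0.0502). The sum of microglia markers, given above, was higher in each cKO library than in any WT library, and its part in the Kdm4a values was not tested.

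Kdm4b (ENSMUSG00000024201, mm10 chromosome 17, 56326062 to 56402870, plus strand), known in human cells as a target of hypoxia-inducible factors, had 39.7, 37.2, 44.9, 47.3 and 42.7 CPM in the cKO libraries, against 36.3, 38.3 and 52.5 CPM as lowest, median and highest in WT. The high WT value was WT17, and the groups overlapped over most of their range. Its log2 fold change was 0.04 (95% interval -0.21 to 0.30; edgeR adjusted p = 0.913). Kdm4c (ENSMUSG00000028397, mm10 chromosome 4, 74242497 to 74405860, plus strand), also known in human cells as inducible by hypoxia, had 8.23, 17.3, 10.1, 11.5 and 15.3 CPM in cKO and 9.18, 14.8 and 20.2 CPM as lowest, median and highest in WT. Both groups spread over more than a doubling, with cKO2 and WT16 lowest and cKO4 and WT13 highest. The log2 fold change of -0.26 had an interval from -0.73 to 0.21 (edgeR adjusted p = 0.62), so a change of Kdm4c of the size seen for Kdm4a was not detectable at this spread.

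Ratios of raw counts within a library do not depend on how libraries are scaled. The count of Kdm4a divided by that of Kdm4b was 1.89 to 2.24 in cKO (median 2.05) and 2.02 to 2.92 in WT (median 2.73). WT17, with its high Kdm4b, had the lowest ratio in WT, and it was the only WT library inside the cKO range. The ratio of Kdm4a to Kdm4c was 4.67 to 10.8 in cKO and 5.36 to 9.98 in WT, which overlapped throughout. These ratios are given as a description, with no test.

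Promoter sequences are shown for Kdm4a and Kdm1a, the genes with an unadjusted p under 0.05, and for Kdm4c, as a paralog of Kdm4a with another set of motifs. They are the 250 bases before a transcription start in RefSeq on GRCm38.p6, the assembly of mm10, written 5′ to 3′ on the strand of the gene: Kdm4a at chr4:118180044-118180293 (minus strand), Kdm1a at chr4:136602724-136602973 (minus strand) and Kdm4c at chr4:74251629-74251878 (plus strand). Capitals mark matches, on either strand, to ACGTG and GCGTG, the core of the hypoxia response element, and to the CCAAT box.
Kdm4a: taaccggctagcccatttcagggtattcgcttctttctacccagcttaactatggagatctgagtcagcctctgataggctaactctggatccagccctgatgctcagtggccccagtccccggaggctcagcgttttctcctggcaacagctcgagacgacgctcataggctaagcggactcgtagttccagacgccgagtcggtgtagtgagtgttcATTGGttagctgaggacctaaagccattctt
Kdm1a: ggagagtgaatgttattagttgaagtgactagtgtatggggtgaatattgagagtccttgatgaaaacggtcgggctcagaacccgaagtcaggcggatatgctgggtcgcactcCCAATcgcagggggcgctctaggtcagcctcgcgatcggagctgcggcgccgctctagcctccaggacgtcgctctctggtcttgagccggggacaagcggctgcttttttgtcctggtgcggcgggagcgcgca
Kdm4c: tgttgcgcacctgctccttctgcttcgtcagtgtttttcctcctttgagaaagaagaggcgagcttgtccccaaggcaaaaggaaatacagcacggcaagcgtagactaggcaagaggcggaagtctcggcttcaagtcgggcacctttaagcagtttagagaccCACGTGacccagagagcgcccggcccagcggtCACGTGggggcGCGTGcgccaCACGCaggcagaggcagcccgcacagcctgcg
Kdm4a and Kdm1a each held 1 CCAAT box, on the reverse strand in Kdm4a and on the forward strand in Kdm1a, and 0 hypoxia response cores. The Kdm4c window held 4 stretches with hypoxia response cores and 0 CCAAT boxes, and in its pair of CACGTG palindromes the core overlaps its own reverse. Of 32851 such windows in the RefSeq table, 38.6% held a hypoxia response core in either form and 33.8% a CCAAT box. The GC content was 53.6% for Kdm4a, 59.2% for Kdm1a and 60.4% for Kdm4c, and the median of all windows was 52.4%. Kdm4c has another listed start further upstream, whose window (chr4:74242247-74242496) held 0 hypoxia response cores and 0 CpG dinucleotides, against 19 CpG in the window shown. Hypoxia response cores also occurred in windows, not shown, of Kdm5b, Kdm7a and Kdm6a (2 stretches each) and of Kdm3a (1 stretch). Windows of Kdm2a, Kdm3b, Kdm4b and Kdm5a were not scanned, so nothing is known here of their motifs. The antisense gene A230083N12Rik overlaps the Kdm4c gene on the opposite strand, with 0 shared exon bases, and had 12 counts over the 11 libraries. Counts per gene cannot say which start was used.

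The KDM3 enzymes remove methyl groups from mono- and dimethylated H3K9. Kdm3a (ENSMUSG00000053470, mm10 chromosome 6, 71588972 to 71632990, minus strand), whose RNA is known in human cells to be induced by hypoxia, had 45.0, 23.9, 36.5, 33.7 and 32.2 CPM in the cKO libraries, against 26.3, 33.1 and 36.2 CPM as lowest, median and highest in WT. The highest and the lowest library, cKO2 and cKO4, were both in the deleted group, and the WT values lay between them. Its log2 fold change was 0.08 (95% interval -0.23 to 0.38; edgeR adjusted p = 0.864), and it was -0.04 without cKO2 and 0.18 without cKO4. Kdm3b (ENSMUSG00000038773, mm10 chromosome 18, 34777047 to 34838660, plus strand) had 121.8 to 151.4 CPM in cKO and 125.6 to 160.0 CPM in WT. Its log2 fold change of -0.02 had an interval of -0.20 to 0.16, that is from -13.2 to 11.7% (edgeR adjusted p = 0.942). A lincRNA on the opposite strand, Gm26538, covers 24.6% of the merged Kdm3b exons. It had 270 counts over the 11 libraries, against 53637 for Kdm3b. Whether the counting used strand is not stated, so their reads cannot be told apart. The count of Kdm3a divided by that of Kdm3b was 0.196 to 0.303 in cKO and 0.164 to 0.281 in WT.

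Kdm7a (ENSMUSG00000042599, mm10 chromosome 6, 39136623 to 39206789, minus strand) encodes the member that acts on dimethylated H3K9 and H3K27. It had 39.7, 36.3, 47.7, 48.6 and 40.2 CPM in the cKO libraries, against 54.4, 54.0, 22.6, 45.5, 58.0 and 38.6 CPM in the WT libraries. The WT libraries spread more widely, with WT13 below every other library and WT8, WT9 and WT16 above every cKO library. The coefficient of variation was 12.7% in cKO and 29.1% in WT. On the log2 scale cKO over WT was -0.10 (SE 0.18, 95% interval -0.48 to 0.29; edgeR adjusted p = 0.858). Without WT13 it was -0.24 (edgeR adjusted p = 0.386), and without WT13, WT16 and WT17 it was -0.28 (edgeR adjusted p = 0.417). None of the 20 alternatives gave a positive value for Kdm7a, and none passed, with adjusted p between 0.386 and 0.981.

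**Figure D3:**
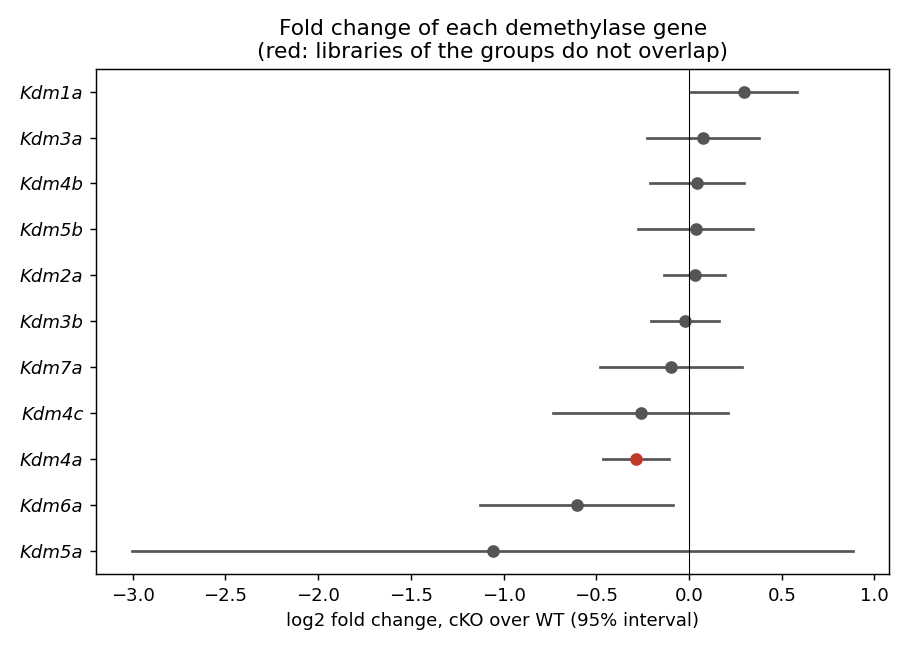
Log2 fold change of cKO over WT for each demethylase gene and Kdm6a (points) with its 95% interval from the edgeR fit (lines); Kdm4a, the gene whose groups do not overlap, is in red. The intervals of Kdm4a, Kdm1a and Kdm6a do not include 0, but they are not adjusted for the number of genes tested, and none of these genes passed the threshold.

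Among the H3K4 demethylases, Kdm1a (ENSMUSG00000036940, mm10 chromosome 4, 136550540 to 136602723, minus strand) encodes LSD1, the catalytic subunit of the CoREST repressor complex, which acts on mono- and dimethylated H3K4. It had 38.1, 28.6, 38.3, 33.1 and 37.3 CPM in the cKO libraries and 22.0, 28.6 and 34.8 CPM as lowest, median and highest in WT. In cKO2, cKO5 and cKO7 the values were above all of WT, while cKO4 and cKO6 lay within the WT range, below WT8. On the log2 scale cKO over WT was 0.29 (SE 0.14, 95% interval 0.01 to 0.58), with an unadjusted p of 0.043 and an edgeR adjusted p of 0.253. Over the 20 alternatives its log2 fold change was between 0.21 and 0.36, with adjusted p between 0.16 and 0.489.

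KDM5 enzymes act on di- and trimethylated H3K4. Kdm5b (ENSMUSG00000042207, mm10 chromosome 1, 134560171 to 134635285, plus strand) had 26.7 to 35.97 CPM in cKO and 24.5 to 40.4 CPM in WT. Its log2 fold change was 0.04 (95% interval -0.27 to 0.35; edgeR adjusted p = 0.945). Kdm5a (ENSMUSG00000030180, mm10 chromosome 6, 120364124 to 120444574, plus strand) was near the floor of the data, with 42, 36, 24, 0 and 16 raw counts in the cKO libraries, against 46, 32, 148, 50, 44 and 26 in the WT libraries. The highest library was WT13, and 0 counts in cKO6 allow a level of up to 0.110 CPM, for counting error only. All 11 counts were even, in a table where 73.5 to 83.9% of counts from 1 to 200 were even in each library. If pairs were counted by mate, the number of independent fragments is lower than the counts. The log2 fold change of -1.1 had an interval of -3.0 to 0.89 (edgeR adjusted p = 0.627), that is from -87.5 to 84.7%, and the coefficient of variation was 70.4% in cKO and 63.0% in WT. Its neighbours Ccdc77, which overlaps 1.77% of the Kdm5a exons on the opposite strand, and Il17ra had totals of 1345 and 956 counts over the 11 libraries, and Kdm5a had 464. Because reads of Kdm5a may have been lost in the authors' counting, its low counts do not show a low RNA level. X-linked Kdm5c, of the same family, had 107 to 140 CPM in cKO and 105 to 126 CPM in WT (log2 fold change 0.02, edgeR adjusted p = 0.951).

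Kdm2a (ENSMUSG00000054611, mm10 chromosome 19, 4314419 to 4398285, minus strand) had 139.0 to 161.2 CPM in cKO and 132.4 to 157.7 CPM in WT. Its log2 fold change of 0.03 had the narrowest interval of the 10 genes, -0.13 to 0.20, or -8.83 to 14.5% (edgeR adjusted p = 0.901). With library totals for scaling it was -0.05.

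Shared sequence between these genes could split reads. Of the 50-base windows of the annotated transcripts, 0% of those of Kdm1a, Kdm3a, Kdm4a, Kdm4b, Kdm4c and Kdm5b occurred in transcripts of another gene, and no window was shared between any pair of the 10. The share was 0.247% for Kdm2a and 1.88% for Kdm5a. For Kdm7a it was 217 of 10008 windows, most of them through the antisense gene 4930599N23Rik (1030 counts over the 11 libraries), and for Kdm3b 24.1%, mostly through Gm26538.

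The genes whose pattern was most like that of Kdm4a, by the root mean square difference of log2 CPM centred on each gene's mean over the 11 samples, were Lbh (0.0644), Sort1 (0.0712) and Epn1 (0.0747), out of 12797 other annotated genes whose average log2 CPM was at least 1. Lbh is a transcription cofactor, Sort1 the sorting receptor sortilin and Epn1 the endocytic adaptor epsin. Their log2 fold changes were -0.27, -0.33 and -0.29, and Sort1 and Epn1 passed the threshold (edgeR adjusted p = 0.0124 and 0.0208) while Lbh did not (0.0962). Because the genes were chosen for likeness over the same cKO and WT libraries, fold changes near that of Kdm4a follow from the choice.

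Of the remaining demethylase genes listed, 12 of 13 were tested and 0 passed, with a median log2 fold change of 0.02. At an unadjusted p under 0.05, reached by 18.3% of all genes, there were 2, of which Kdm6a was lower in cKO. DESeq2, which called 7.25% of all genes, and limma-voom, which called 3.29%, called 0 of these 12. Those with the highest CPM were the H3K9 demethylase gene Phf2, at 0.14 (SE 0.091; edgeR adjusted p = 0.436), and Kdm5c, given above. Kdm4d, a further KDM4 gene, was too low to test, at 0 to 0.125 CPM in cKO and 0 to 2.20 CPM in WT.

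For the genes of the related lists too, the part of the microglia marker sums, which did not overlap between the groups, was not tested. Over all genes tested 2.43% fell and 1.86% rose. Of 14 tested genes of the LSD1, CoREST and NuRD list, out of 17 listed, 1 fell and 0 rose, with a median of 0.08. Those not tested, Gfi1, Gfi1b and Mta1, had 0 counts in all 11 libraries. The gene that fell was Gse1, which encodes a protein found with LSD1 and CoREST, at 67.8, 54.2, 57.6, 49.3 and 64.7 CPM in the cKO libraries and 83.5, 98.7 and 116 CPM as lowest, median and highest in WT. The groups did not overlap, the log2 fold change was -0.76 (SE 0.11, edgeR adjusted p = 0.000139), and Gse1 passed in all 20 alternatives. Its WT values were highest in WT13, WT16 and WT17, at 116.4, 101.9 and 111.2 CPM, the libraries with the highest sums of neuronal markers. Without these libraries Gse1 was at -0.60 (edgeR adjusted p = 0.00167). With the covariate for markers of neurons, astrocytes and oligodendrocytes it was at -0.65 (edgeR adjusted p = 0.000292). All 14 genes of the SIN3 complex, a partner of KDM5 enzymes, were tested and 0 passed, with 10 of 14 positive and a median of 0.17. Over all genes tested 51.6% of log2 fold changes were below 0. Of all genes 18.3% had an unadjusted p under 0.05, and in the SIN3 list 3 did. DESeq2, which called 7.25% of all genes, called 1 of the list, and limma-voom, which called 3.29%, called 0. Those with the highest CPM were Suds3 (0.12, edgeR adjusted p = 0.607) and Phf12 (-0.11, edgeR adjusted p = 0.633).

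Among the enzymes that write the same marks, 0 to 3 of 11 genes of H3K4 methyltransferases and their subunits passed over the alternatives. In the edgeR test, where 2.43% of all genes fell and 1.86% rose, 2 of the 11 fell and 0 rose, with a median of -0.03. They were Kmt2a, at 32.9, 30.1, 27.3, 40.4 and 35.4 CPM in cKO and 36.1, 65.1 and 95.1 CPM as lowest, median and highest in WT (-0.94 on the log2 scale, SE 0.19; edgeR adjusted p = 0.00953), and Kmt2d (-0.41, SE 0.12; edgeR adjusted p = 0.0421). The WT values of Kmt2a and Kmt2d were highest in WT13, WT16 and WT17, the libraries with the highest sums of neuronal markers. Without these 3 libraries Kmt2a was at -0.54 (edgeR adjusted p = 0.0668, range over the alternatives 7.53e-05 to 0.0668) and Kmt2d at -0.21 (edgeR adjusted p = 0.411, range 0.00657 to 0.411). With the covariate for other cells Kmt2a was at -0.65 and passed (edgeR adjusted p = 0.0126), and Kmt2d was at -0.21 and did not (edgeR adjusted p = 0.228). Kmt2d did not pass in 11 of 20 alternatives, among them without WT9, WT13, WT16 or WT17 and without cKO2, cKO4, cKO5 or cKO6. Of 11 tested H3K9 methyltransferase and reader genes, out of 12 listed, 1 rose and 0 fell, beside the same shares over all genes, with a median of 0.06. It was Wiz, a zinc finger partner of the G9a and GLP methyltransferases, at 0.35 (SE 0.087; edgeR adjusted p = 0.0235), with 120.0 to 143.5 CPM in cKO and 92.5 to 111.3 CPM in WT. Ehmt2, the gene for G9a, was the listed gene not tested, with 0 counts in all 11 libraries. Wiz did not pass in 6 of 20 alternatives, which were library totals for scaling, the fits without cKO2, cKO6, WT9 or WT16, and the fit with WT13, WT16 and WT17 all left out (0.32, edgeR adjusted p = 0.0667, range over the alternatives 0.004 to 0.0755). Of 7 H3K36 methyltransferase genes 0 passed in the edgeR test, by DESeq2 or by limma-voom. With library totals for scaling, where 5.02% of all genes passed, 1 of the 7 did. In the edgeR test 18.3% of all genes had an unadjusted p under 0.05. Of the 7 genes 1 did, and their median was -0.02. Those with the highest CPM were Nsd1 (0.004, edgeR adjusted p = 0.991) and Nsd3 (-0.02, edgeR adjusted p = 0.96).

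Over all genes tested 1.86% rose and 2.43% fell. Of 12 other oxygenases that use 2-oxoglutarate, 1 rose and 0 fell, with a median of 0.06. Alkbh5, which removes N6-methyladenosine from RNA, had 202.4, 201.0, 208.3, 199.9 and 187.8 CPM in cKO and 144.3, 159.4 and 169.5 CPM as lowest, median and highest in WT, without overlap (0.34 on the log2 scale, SE 0.076; edgeR adjusted p = 0.00968), and it passed in all 20 alternatives. Of 15 hypoxia-inducible genes 1 rose and 0 fell, beside the same shares over all genes, with a median of 0.07. The gene that rose was Ddit4, an inhibitor of mTORC1 signalling that also responds to glucocorticoids, at 70.6, 80.4, 229.8, 321.3 and 384.8 CPM in the cKO libraries, against 14.6, 20.6 and 36.6 CPM as lowest, median and highest in WT (3.22 on the log2 scale, SE 0.52; edgeR adjusted p = 0.00894). The deleted group itself was widely spread for Ddit4, with cKO2 and cKO4 lowest, but did not overlap with WT. Without WT13, WT16 and WT17 Ddit4 did not pass (3.65, edgeR adjusted p = 0.0779), nor with limma-voom (2.95, adjusted p = 0.0517), the range over the alternatives being 7.06e-09 to 0.0779.

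**Figure D4:**
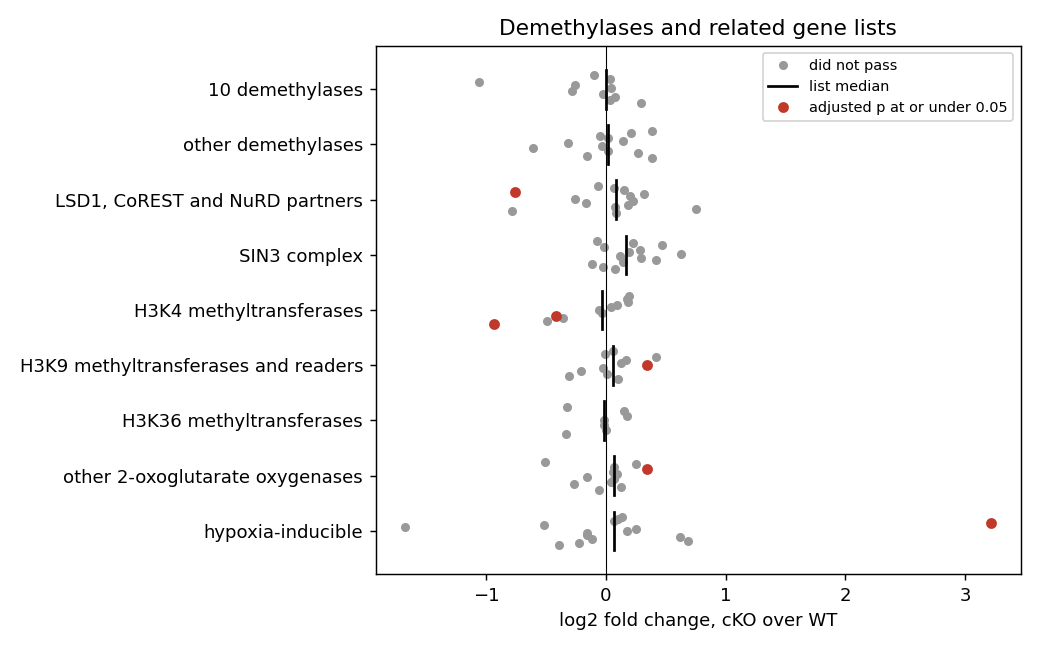
Log2 fold change of cKO over WT for the tested genes of each list (grey points, not past the threshold; red points, edgeR adjusted p at or under 0.05; black bars, list medians). All 10 demethylase points in the top row are grey, and the red points are Gse1, Kmt2a, Kmt2d, Wiz, Alkbh5 and, farthest to the right, Ddit4.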

How the data were processed

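RNA from tagged ribosomes of spinal cord microglia was sequenced in 11 samples (5 cKO, 6 WT). Per the labels' protocols a Direct-zol kit served for RNA isolation and a stranded KAPA kit, which enriches mRNA, for the libraries. Tools named by the submitters' processing notes are bcl2fastq 2.17, FastQC and Trimmomatic, and the build is mm10. The authors deposited raw counts per Ensembl gene, with no normalization. Which aligner, counter, strand setting and annotation made them is not given in the sources used here.

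Of 39017 genes 37607 had a symbol in the gene name table supplied, and 17296 had 0 counts in every library. Coordinates and exon lengths are from GENCODE M21, on the assembly of mm10, and promoter sequences from RefSeq. Differences were tested by the quasi-likelihood method of edgeR 4.0.16 in R 4.3.3 (robust option), with filterByExpr (minimum count 10, minimum total 15), TMM factors, a single term for genotype, all 11 samples, Benjamini-Hochberg adjustment over 16025 genes and a threshold of 0.05. SEs follow from the log2 fold change and its F value. CPM is given per library, and log2 CPM used a prior count of 2. DESeq2 1.42.0 and limma-voom (limma 3.58.1) were alternatives, beside other scalings, filters, counts divided by 2, a marker covariate and libraries left out. The procedure was tested on simulated data. Even for the most similar pair of one group (WT8 with WT15) the chi-square per gene was 15.7, so no library was counted as a repeat of another.

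The genes named are the 10 demethylases, Kdm6a, up to 4 members past the threshold of each related list, or its 2 most abundant where none passed, and the 3 genes most like the demethylase gene with the smallest p. Kdm4d, the cell type markers, Gm26538, 4930599N23Rik, A230083N12Rik, Ccdc77, Il17ra, Gfi1, Gfi1b, Mta1 and Ehmt2 are named beside them for a count or an overlap. The members and lists were chosen with earlier results of these data known. In the hypoxia-inducible list Ero1l stands for Ero1a, its symbol in the table. A further microglia marker is not reported here and is not part of the marker sums.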

Additional observations from a re-analysis of the deposited data

How the results depend on the processing

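The number of genes past the threshold was 687 and ran from 527 to 1162 over the settings other than single libraries left out, the highest being DESeq2's, where it counted 1162. Leaving out 1 library at a time gave 437 to 945 genes, the lowest without cKO5 and cKO6. Of the called genes 43.4% were higher in cKO, but 25.2% with library totals. The number of demethylase genes past the threshold, 0, became 1 in 3 settings. They were library totals (where 5.02% of all genes passed), DESeq2 (7.25%) and WT13, WT16 and WT17 left out (3.21%). With single libraries left out, where 2.67 to 5.98% of all genes passed, the number was 0, or 1 without WT16 (2.99%). In each case the gene was Kdm4a, at log2 fold changes of -0.369, -0.289 and -0.338 in these 3 settings, and between -0.323 and -0.257 with single libraries left out. The cause was not tested. Kdm6a passed in none of the 20 alternatives (-0.69 to -0.47). The other 9 members passed in none of theirs. No paired analysis was possible because the groups share no replicate number. Kdm5a had both the lowest counts and the widest spread between libraries of the 10 genes, with coefficients of variation of 70.4% in cKO and 63.0% in WT.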
